A study of Mus musculus with 5 samples.

Results

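The BCL2 family of survival and death genes was followed across the bone marrow (BM) of mice given cyclophosphamide (CTX), an alkylating chemotherapy drug. The 9 members, Bcl2, Mcl1, Bcl2l1, Bcl2a1a, Bcl2a1b, Bcl2a1d, Bcl2l11, Bid and Bak1, were taken by their symbols from the 31053 genes listed in the count matrices, and all 9 were found. Whole BM was profiled from untreated (naive) mice and from mice on day 2 (D2) and day 7 (D7) after intraperitoneal injection of 150 mg/kg CTX in PBS. These 3 libraries are labelled BM mononuclear cells, CD45+. The other 2 libraries were CD11b+Ly6Chi monocytes sorted from naive and from CTX-treated BM, the latter at day 7 by the methods text, as the labels give no day for it. The study used BALB/c mice. For whole BM, cells of 3 mice were pooled in equal numbers into 1 library per condition after removal of dead cells. The number of mice behind the sorted libraries is not clear from the sources. No condition therefore has a replicate library. The values below are sums of unique molecular identifiers (UMIs, 1 per captured RNA molecule) per 1000000 UMIs (CPM), with exact Poisson intervals at 95%, and they carry counting error only: the spread between mice is not known, and no p-value can be given.

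The BCL2 family controls the release of cytochrome c from mitochondria, the step that commits many cells to apoptosis. BCL2, MCL1, BCL-XL (from Bcl2l1) and A1 (from the Bcl2a1 genes) hold the effector proteins BAK (from Bak1) and BAX in check. BH3-only proteins such as BIM (from Bcl2l11) and BID oppose these survival proteins or act on the effectors directly. In blood cells the members have known preferences: lymphocytes lean on BCL2, myeloid cells and stem cells on MCL1, developing B cells and red cell precursors on BCL-XL, and BIM is a main mediator of the death of lymphocytes and myeloid cells.

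The 3 Bcl2a1 genes are nearly identical copies on mouse chromosome 9, at chr9:88956900-88962419 on the plus strand for Bcl2a1a, chr9:89199209-89207827 on the plus strand for Bcl2a1b and chr9:88723285-88731914 on the minus strand for Bcl2a1d (GRCm38). Their promoter stretches are shown because their likeness extends upstream of the first exon, and that of Bcl2l11 because it was the member that moved in the most cell classes at D2. The sequences are RefSeq's for GRCm38.p6, the C57BL/6J reference, and lie upstream of every annotated exon of the gene. Capitals mark the first of 2 motifs searched on both strands, GAGGAAGT (purine-rich, as ETS family factors bind) in the Bcl2a1 genes, and the second, GTAAACA (a forkhead-like motif), in Bcl2l11. The stretches are chr9:88956670-88956899 plus strand, chr9:89199023-89199208 plus strand, chr9:88731915-88732100 minus strand and chr2:128125788-128126037 plus strand, in the order printed.
Bcl2a1a: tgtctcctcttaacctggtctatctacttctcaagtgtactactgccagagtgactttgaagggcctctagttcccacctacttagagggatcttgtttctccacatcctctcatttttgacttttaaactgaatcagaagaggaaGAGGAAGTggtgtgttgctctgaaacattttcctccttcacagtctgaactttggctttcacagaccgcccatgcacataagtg
Bcl2a1b: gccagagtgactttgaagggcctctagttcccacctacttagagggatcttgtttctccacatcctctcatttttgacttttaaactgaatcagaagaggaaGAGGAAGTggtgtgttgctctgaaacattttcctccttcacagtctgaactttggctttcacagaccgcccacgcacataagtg
Bcl2a1d: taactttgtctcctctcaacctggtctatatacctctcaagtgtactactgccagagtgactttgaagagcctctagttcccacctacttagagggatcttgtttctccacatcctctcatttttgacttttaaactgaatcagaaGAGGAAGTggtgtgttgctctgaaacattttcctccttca
Bcl2l11: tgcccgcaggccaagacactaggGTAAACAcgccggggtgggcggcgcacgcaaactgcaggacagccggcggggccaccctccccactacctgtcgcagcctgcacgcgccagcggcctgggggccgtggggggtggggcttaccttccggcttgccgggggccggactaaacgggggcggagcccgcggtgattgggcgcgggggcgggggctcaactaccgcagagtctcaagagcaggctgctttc
The stretches of Bcl2a1a and Bcl2a1b were identical at 185 of 186 aligned bases (99.5%), those of Bcl2a1a and Bcl2a1d at 176 of 180 and those of Bcl2a1b and Bcl2a1d at 135 of 136, each of the last 2 pairs with 6 further bases in a gap. The transcripts of the 3 copies were 98.2% to 99.1% identical. Of the windows of 90 bases in the last 400 bases of each transcript, which 3′ libraries sample, 27.0% of Bcl2a1a, 34.1% of Bcl2a1b and 60.8% of Bcl2a1d occur unchanged in another copy. Counts of the single copies are thus uncertain, and their sum (Bcl2a1) is given beside them. GAGGAAGT occurs in 3.20% of the 32851 RefSeq promoter windows of 300 bases and GTAAACA in 3.65%. Among the other members, the first was in the window of Bak1 and neither was in those of Bcl2, Mcl1, Bcl2l1 or Bid. A match is a description of these letters and was not tested for binding.

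Cells were assigned to classes from marker genes that hold no BCL2 family member. After a filter of at least 200 genes and under 20% mitochondrial UMIs, 7104 naive, 6126 D2, 8290 D7, 1891 sorted naive and 2564 sorted CTX cells were kept, with 46065849, 33940059, 67921924, 22279758 and 28622354 UMIs. Median UMIs per cell ran from 3033.5 at D2 to 7189.5 at D7 in whole BM and were 10299 and 9694 in the sorted libraries. Pairs of libraries shared 2 to 16 cell barcodes, at most 0.360% of the smaller library. Of the 25975 cells, 4.25% stayed unassigned, 7.82% lay near a class limit and 6.48% near the limit that sets cycling cells apart. The sorted libraries held the labelled cells by their markers: monocyte-like and cycling monocyte-like cells were 68.7% and 21.6% of the sorted naive and 59.2% and 27.0% of the sorted CTX cells. The whole BM held granulocytes although labelled mononuclear, with mature neutrophil-like cells at 11.7% of naive, 21.9% of D2 and 8.84% of D7 cells. The mixture changed at each time. T-like cells, for example, were 1.97%, 5.14% and 0.157%, pre-B-like cells 13.6%, 11.6% and 1.06%, and neutrophil precursor-like cells 12.3%, 2.63% and 26.8% in the naive, D2 and D7 libraries. Erythroid-like cells were 5.84% of the naive library despite its CD45+ label. Levels in a whole library depend on this mixture, and fewer cells of a type and less RNA per cell cannot be told apart in them. Levels in a single library are given for classes with at least 50 cells there, and comparisons within classes for those with at least 50 cells in both libraries. The arithmetic split below is the exception: it takes all classes, also smaller ones and unassigned cells.

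In naive BM, Bcl2 was highest in T-like cells (403 CPM) and NK-like cells (257 CPM), whose intervals do not overlap, followed by plasmacytoid-like cells (122 CPM) and Ms4a1/Ighd B-like cells (106 CPM), which did not differ beyond counting error. It was lowest in erythroid-like cells (3.43 CPM) and immature neutrophil-like cells (4.03 CPM). Mcl1 was highest in mature neutrophil-like cells (1126 CPM), then in Ms4a1/Ighd B-like cells (658 CPM) and monocyte-like cells (586 CPM), whose intervals overlap, and lowest in erythroid-like cells (93.2 CPM) and GMP-like (granulocyte-monocyte progenitor) cells (96.4 CPM). In the B lineage, Bcl2l1 reached 130.5 CPM in pre-B-like and 62.0 CPM in cycling B lineage-like cells and no more than 27.7 CPM elsewhere, while Bcl2 in pre-B-like cells was only 6.43 CPM.

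Also in naive BM, to which all levels of this paragraph belong, Bcl2l11 was highest in NK-like cells (67.7 CPM) and erythroid-like cells (63.8 CPM), which overlap, and low in GMP-like cells (5.72 CPM). Bid and Bak1, the last a pore-forming effector, were both highest in cycling monocyte-like cells (70.6 and 88.8 CPM). Bid was near that level in mature neutrophil-like (67.6 CPM) and plasmacytoid-like cells (63.7 CPM) and low in neutrophil precursor-like cells (14.7 CPM), and Bak1 was lowest in mature neutrophil-like cells (19.5 CPM). The Bcl2a1 sum was 42.9 CPM in T-like, 41.3 CPM in dendritic MHC class II-like and 27.0 CPM in mature neutrophil-like cells, on 17 to 50 UMIs each. With a stricter class gate the highest class was kept for 7 of the 9 members. Bcl2a1a moved to mature neutrophil-like cells and Bcl2a1d to T-like cells.

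Over the libraries as wholes, Bcl2 was 24.9 CPM in naive BM, 105.5 CPM at D2 and 13.1 CPM at D7, and 16.4 and 15.97 CPM in the sorted naive and sorted CTX cells. The D2 library stood apart from the other 4. Mcl1 was 281, 476 and 258 CPM in whole BM and 761 and 532 CPM in the sorted cells. Bcl2l11 was 23.4, 37.4 and 10.8 CPM in whole BM and 34.7 and 18.2 CPM in the sorted cells. Both of these were highest among whole BM at D2 and were lower in the sorted CTX than in the sorted naive library. Bcl2l1 was 26.8, 21.4 and 10.0 CPM in whole BM and 7.27 and 8.84 CPM in the sorted cells. The Bcl2a1 sum was 6.58, 18.5 and 4.48 CPM and 6.82 and 5.35 CPM in the same order. Bid (29.5, 34.8 and 31.9 CPM) and Bak1 (39.1, 44.1 and 27.9 CPM) varied least among whole BM, and both were higher in the sorted cells, at 77.0 and 82.3 CPM for Bid and 72.3 and 67.4 CPM for Bak1.

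**Figure D1:**
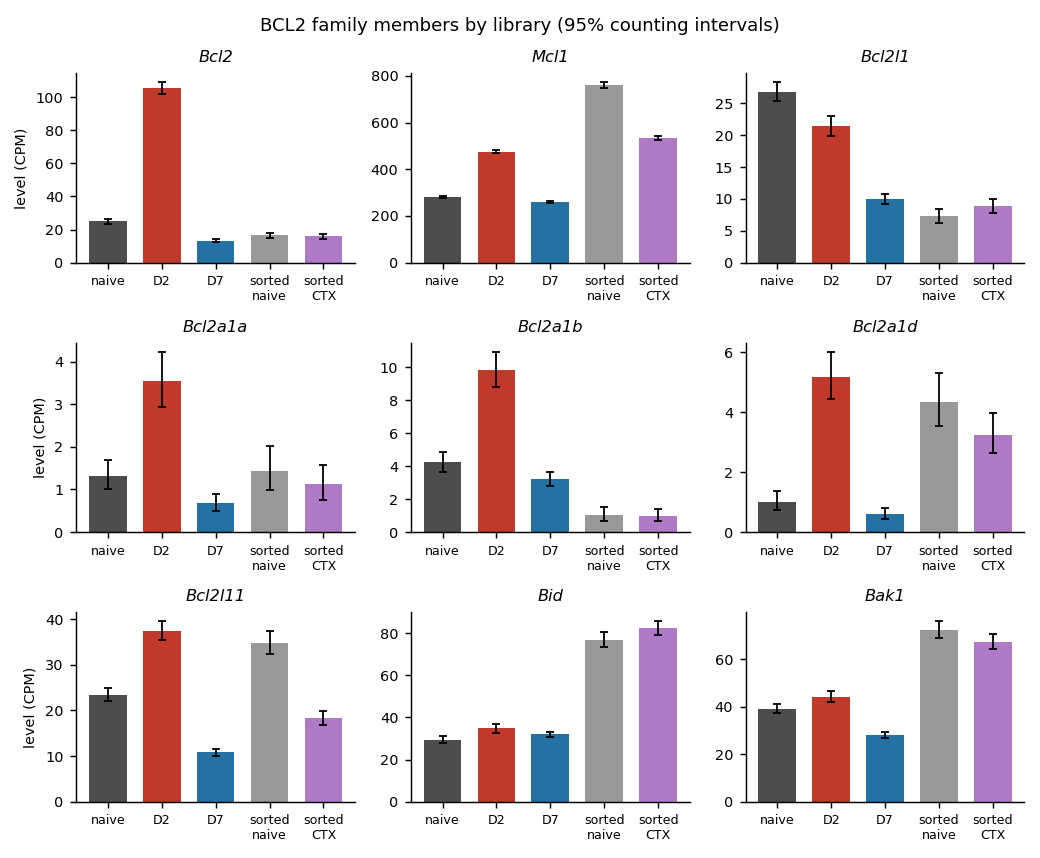
Level of each of the 9 members in the 5 libraries, in CPM of all kept cells, with bars from 0 and 95% Poisson counting intervals and 1 library per bar. Bcl2 stands at 105.5 CPM at D2 against 13.1 to 24.9 CPM in the other 4 libraries.

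The first comparison asked what differed 2 days after CTX. A gene was called where the libraries were at least 1 log2 unit apart on the log2(CPM + 1) scale with at least 100 UMIs over both. At D2, 3 of 9 members were called higher (Bcl2, Bcl2a1b and Bcl2a1d) and 0 lower, against 6.5% of 11641 genes called higher and 3.19% lower. The call of Bcl2a1b (1.05 on that scale) was lost with scaling by the median of gene ratios (0.85) and with the mean of the cells' CPM (0.73). The median over the members was 0.76 against 0.20 over all genes. As log2 ratios of CPM, Bcl2 rose by 2.08 (1.99 to 2.18) and the Bcl2a1 sum by 1.49 (1.29 to 1.70). Mcl1 was higher by 0.76 (0.73 to 0.79), Bcl2l11 by 0.68 (0.56 to 0.80) and Bid by 0.24 (0.13 to 0.35), all short of the call. Bcl2l1 was lower, at -0.32 (-0.46 to -0.19). Bak1 was 0.17 (0.08 to 0.27), a direction that turned (-0.03 on the log2(CPM + 1) scale) when libraries were scaled by the median of gene ratios.

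Within classes, 28 of the 94 pairs of a member and a class with at least 20 UMIs were called higher at D2 and 0 lower, against 7.63% of 114360 gene and class pairs called higher and 2.81% lower. By class the share of genes called higher ran from 4.18% in immature neutrophil-like to 16.2% in GMP-like cells. Bcl2l11 carried 12 of the 28. It was above its naive level in all 14 classes compared, with an interval above 0 in 13, and the median over classes was 1.34 on the log2(CPM + 1) scale, where the median of all genes ran from 0.04 to 0.40 by class. Naive against D2 levels were 67.7 and 211 CPM in NK-like, 40.3 and 108 CPM in T-like, 31.4 and 67.0 CPM in pre-B-like, 19.0 and 62.3 CPM in plasmacytoid-like, 15.8 and 35.9 CPM in Kit-positive progenitor-like and 5.72 and 15.7 CPM in GMP-like cells. Lymphoid, progenitor and myeloid classes were among the 12. Mature neutrophil-like cells fell just short of the call (19.5 and 39.2 CPM; log2 ratio 1.01, 0.46 to 1.60). In the dendritic MHC class II-like class the level was 13.05 and 36.6 CPM, and without the cells that held Ms4a1 or Cd79a the interval spanned 0 (15.6 and 33.8 CPM; 1.12, -0.39 to 2.92).

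The interval that spanned 0 was that of the monocyte-like class. Its Bcl2l11 level was 38.0 CPM in naive, 41.3 CPM at D2 and 46.3 CPM at D7, with a D2 log2 ratio of 0.12 (-0.62 to 0.81). Cycling monocyte-like cells, in contrast, went from 16.8 to 51.4 CPM (1.61, 0.89 to 2.38). Only 83 monocyte-like cells were left at D2 against 353 in naive BM, and they were a shifted set: Ly6c2, a marker of classical monocytes, was 1281 CPM in naive and 754 CPM at D2, and Ace, a marker of Ly6C-low monocytes, 7.79 and 82.6 CPM. The part of these shifts in the values of either class was not tested.

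**Figure D2:**
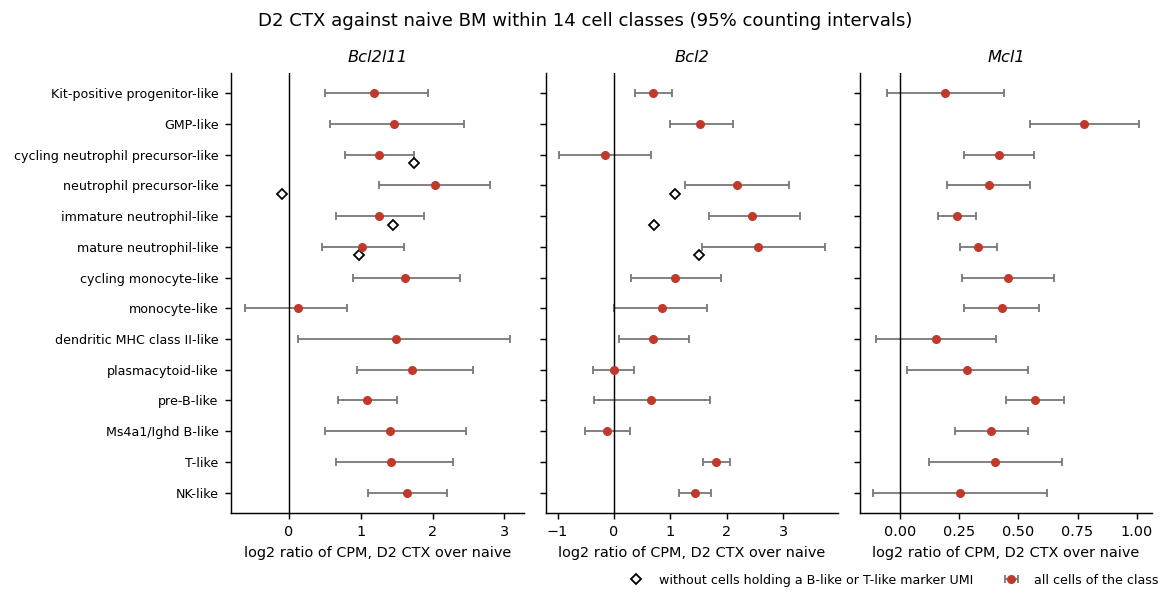
Log2 ratio of CPM at D2 over naive within 14 classes for Bcl2l11, Bcl2 and Mcl1, with 95% counting intervals. Diamonds in the Bcl2l11 and Bcl2 panels mark the 4 neutrophil-like classes without cells that hold a B-like or T-like marker UMI. Bcl2 has no diamond in cycling neutrophil precursor-like cells, which kept 0 Bcl2 UMIs at D2. Bcl2l11 intervals lie above 0 in 13 of 14 classes. The Bcl2 diamonds rest on at most 5 UMIs in either library.

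The Bcl2 difference at D2 varied by class. In T-like cells it was 403 CPM in naive BM (160 UMIs, 140 cells) and 1419.5 CPM at D2 (1379 UMIs, 315 cells), a log2 ratio of 1.81 (1.58 to 2.06). In NK-like cells it was 257 and 692 CPM (1.43, 1.15 to 1.71). Leaving out cycling cells kept 138 of 140 naive and 313 of 315 D2 T-like cells (411 and 1443 CPM). It removed too few T-like cells to bear on their gain. The T-like markers summed to 4778 CPM in naive and 3468 CPM in D2 T-like cells, and the part of this shift in the Bcl2 values was not tested. Of NK-like cells the same restriction kept 71 of 91 naive and 101 of 110 D2 cells. The NK-like gain remained, at 354 and 879 CPM. Other lymphoid classes with high Bcl2 showed no such gain: Ms4a1/Ighd B-like cells were at 106 and 97.1 CPM (-0.12, -0.52 to 0.29) and plasmacytoid-like cells at 122 CPM in both libraries (-0.36 to 0.36).

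The share of T-like cells with a Bcl2 UMI, after thinning each cell to 1000 UMIs, was 25.2% (exact Clopper-Pearson 18.2% to 33.2%, 139 cells) in naive and 66.2% (60.7% to 71.5%, 311 cells) at D2, or 47.1% and 83.5% unthinned. In pre-B-like cells, which hold little Bcl2, it was 0.525% and 0.428%, so the T-like shares lay far above that background. Median depths were similar, at 2697.5 and 2899 UMIs in T-like and 2449 and 2372 UMIs in pre-B-like cells. For NK-like cells the shares were 24.2% and 50.5%.

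Progenitors also held more Bcl2 at D2, with 72.6 and 118 CPM in Kit-positive progenitor-like cells (0.70, 0.37 to 1.04) and 14.7 and 42.5 CPM in GMP-like cells (1.53, 0.99 to 2.11). These progenitor classes also changed in make-up: cycling cells were 30.1% and 72.7% of Kit-positive and 47.4% and 83.5% of GMP-like cells, and median UMIs per cell 10093 and 26952 and 11573 and 35221. The part of this in the values of any member in these classes was not tested. Dendritic MHC class II-like cells went from 73.9 to 120.1 CPM (0.70, 0.09 to 1.34) and cycling monocyte-like cells from 16.8 to 35.6 CPM (1.08, 0.30 to 1.89). The other 3 of the 7 classes with Bcl2 called were neutrophil-like, with large ratios from low levels, such as 4.87 and 28.5 CPM in mature neutrophil-like cells (2.55, 1.56 to 3.73). There the B cell gene Ms4a1 moved as well, from 2.70 to 57.1 CPM, and the sum of the 7 B-like markers from 277 to 457 CPM, while the sum of the 6 T-like markers was 284 and 197 CPM. Without the cells that held a B-like or T-like marker UMI, Bcl2 in mature neutrophil-like cells was 1.13 CPM in naive (1 UMI, 469 cells) and 3.23 CPM at D2 (5 UMIs, 959 cells), in immature neutrophil-like cells 1.25 and 2.04 CPM, and in neutrophil precursor-like cells 2.81 and 5.92 CPM, each with an interval that spans 0. The 4 to 6 UMIs left in each of these classes are under the minimum for a call and too few to show whether the difference remained.

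Under the same restriction Bcl2l11 was higher at D2 in cycling neutrophil precursor-like (12.4 and 41.5 CPM), immature (6.24 and 17.04 CPM) and mature neutrophil-like cells (23.8 and 46.5 CPM), all with intervals above 0. In neutrophil precursor-like cells it left 9 UMIs in 235 naive and 1 UMI in 34 D2 cells (6.32 and 5.92 CPM), too few to show a difference of either sign. The restriction removed most cells of some classes, leaving 169 of 448 naive and 41 of 235 D2 cycling precursor-like cells. Of immature cells it left 258 of 1024 and 412 of 1237. The T-like markers summed to 414 CPM in naive and 401 CPM in D7 immature cells, although T-like cells were 0.157% of the D7 library. The source of the marker UMIs in these classes was not tested.

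Mcl1 was higher at each later stage of the neutrophil series in all 3 whole BM libraries. From cycling precursor-like through precursor-like and immature to mature neutrophil-like cells it was 141, 240.5, 518 and 1126 CPM in naive BM, 188, 312, 612 and 1418 CPM at D2 and 137, 198, 383 and 858 CPM at D7. Each step was larger than the counting intervals in all 3 libraries. At D2 Mcl1 was above naive in all 14 classes, with an interval above 0 in 11, yet called in 0, with a median of 0.38 on the log2(CPM + 1) scale. The widest differences were in GMP-like cells (96.4 and 165 CPM; log2 ratio 0.78, 0.55 to 1.01) and pre-B-like cells (400.5 and 595 CPM; 0.57, 0.45 to 0.69). With each class scaled by the median of its gene ratios Mcl1 was higher in 13 of 14. In the dendritic MHC class II-like class (494 and 548 CPM) its direction turned without the cells that held Ms4a1 or Cd79a (547 and 474 CPM; -0.21, -0.50 to 0.08).

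**Figure D3:**
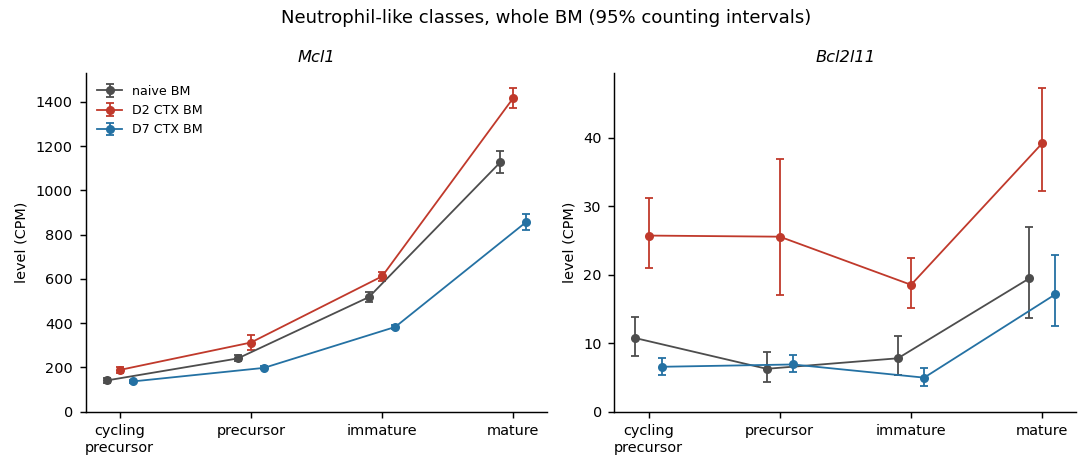
Mcl1 and Bcl2l11 in CPM along the 4 neutrophil-like classes of whole BM, 1 line per library, with 95% counting intervals. Mcl1 climbs to 1126, 1418 and 858 CPM in mature cells of the naive, D2 and D7 libraries, while Bcl2l11 at D2 lies above both other libraries at each stage.

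The Bcl2a1 copies, targets of NF-κB in activated leukocytes, were concentrated at D2 in antigen-presenting and phagocytic classes. The sum was 41.3 CPM in naive and 336 CPM at D2 in dendritic MHC class II-like cells (19 and 193 UMIs; log2 ratio 3.02, 2.34 to 3.79) and 8.77 and 96.9 CPM in monocyte-like cells (18 and 54 UMIs; 3.47, 2.67 to 4.32). In macrophage-like cells, of which naive BM held 47, it was 134 CPM at D2. In the monocyte-like class the dendritic MHC class II-like markers also differed, at 363 CPM in naive and 1911 CPM at D2 in sum (Cd74 188 and 1027 CPM), as did the mature neutrophil-like markers (118 and 499 CPM), and their part in the Bcl2a1 values was not tested. All 3 copies were called in the dendritic class, from 15.2 to 71.4 CPM for Bcl2a1a, 8.70 to 104 CPM for Bcl2a1b and 17.4 to 160.1 CPM for Bcl2a1d. Without the cells that held Ms4a1 or Cd79a, which left 47 naive and 54 D2 cells, they went from 15.6 to 84.6, 12.4 to 120.5 and 21.8 to 190.3 CPM.

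Mature neutrophil-like cells (27.0 and 29.2 CPM) and T-like cells (42.9 and 43.2 CPM) did not differ in summed level beyond counting error (log2 ratios 0.11, -0.41 to 0.65, and 0.01, -0.83 to 0.92). The earlier neutrophil classes were higher at D2, with 6.56 and 15.5 CPM in cycling precursor-like and 6.08 and 23.8 CPM in precursor-like cells. Without cells holding a B-like or T-like marker UMI too few UMIs of Bcl2a1b, most of the sum, were left there for a call (5.63 and 12.6 CPM, and 4.21 and 17.8 CPM, with intervals that span 0). Monocyte-like cells with Ly6c2 at or above the naive median numbered only 15 at D2 and held 1 of the 54 Bcl2a1 UMIs of this class.

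**Figure D4:**
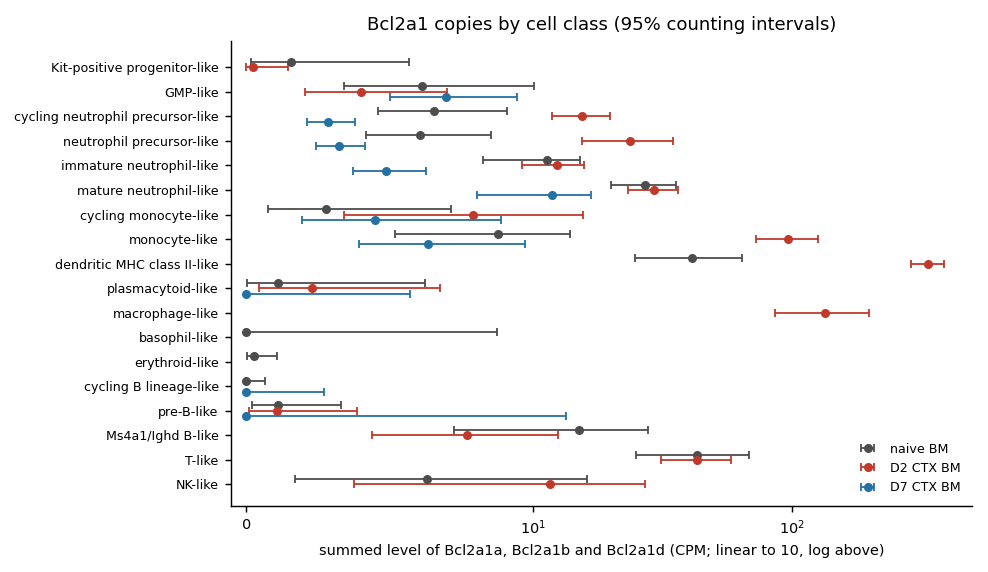
Summed CPM of Bcl2a1a, Bcl2a1b and Bcl2a1d by class in naive, D2 and D7 whole BM, on an axis that is linear to 10 and logarithmic above, with 95% counting intervals. The dendritic, macrophage-like and monocyte-like classes at D2 reach 336, 134 and 96.9 CPM.

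Bcl2l1, Bid and Bak1 had no shared direction at D2. Bcl2l1 was higher in 5 and lower in 7 of the 12 classes with enough UMIs, and its interval lay above 0 only in NK-like cells (26.8 and 53.4 CPM). Bid was higher in GMP-like cells (41.7 and 74.7 CPM; 0.84, 0.50 to 1.19) and lower in cycling neutrophil precursor-like (18.8 and 9.50 CPM), cycling monocyte-like (70.6 and 46.4 CPM) and plasmacytoid-like cells (63.7 and 35.4 CPM). Bak1 was called in 1 class, the dendritic MHC class II-like cells (45.7 and 94.0 CPM; 1.04, 0.29 to 1.84), a call lost without the cells that held Ms4a1 or Cd79a (52.9 and 99.4 CPM; 0.91, 0.08 to 1.80). Its interval also lay above 0 in GMP-like (48.2 and 79.4 CPM) and cycling neutrophil precursor-like cells (30.4 and 38.2 CPM).

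An arithmetic split set the change in cell mixture, taken as each class's share of UMIs, apart from the change within classes. A share of UMIs depends on cell number and on UMIs per cell. GMP-like cells, for example, went from 2.94% of naive to 1.29% of D2 cells, while their share of UMIs went from 5.31% to 8.80%. Of the D2 gain of Bcl2 in whole BM, 80.6 CPM, 35.1 CPM came from the mixture and 45.6 CPM from within classes, with T-like cells the largest entry in both (18.2 and 18.9 CPM). Under a stricter class gate the parts were 27.7 and 52.9 CPM, and unassigned cells were the largest entry within classes (20.8 CPM). The gain of Mcl1, 194.8 CPM, fell into 100.2 CPM from the mixture, chiefly more mature neutrophil-like cells, and 94.6 CPM from within classes. For Bcl2l11 the parts had opposite signs: a within-class gain of 19.1 CPM stood against a mixture term of -5.13 CPM, so that the whole library moved by 14.01 CPM. Its largest within-class entry was cycling B lineage-like cells (2.49 CPM), of which D2 held 14. Its largest mixture entry was erythroid-like cells (-7.54 CPM). The difference of Bcl2l1, -5.37 CPM, held a mixture term of -10.3 CPM and a within-class term of 4.89 CPM, and erythroid-like cells, of which only 49 were left at D2, gave the largest entry in both (-9.87 and 9.15 CPM). For Bid the difference of 5.31 CPM held 5.98 CPM of mixture and -0.67 CPM within classes.

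**Figure D5:**
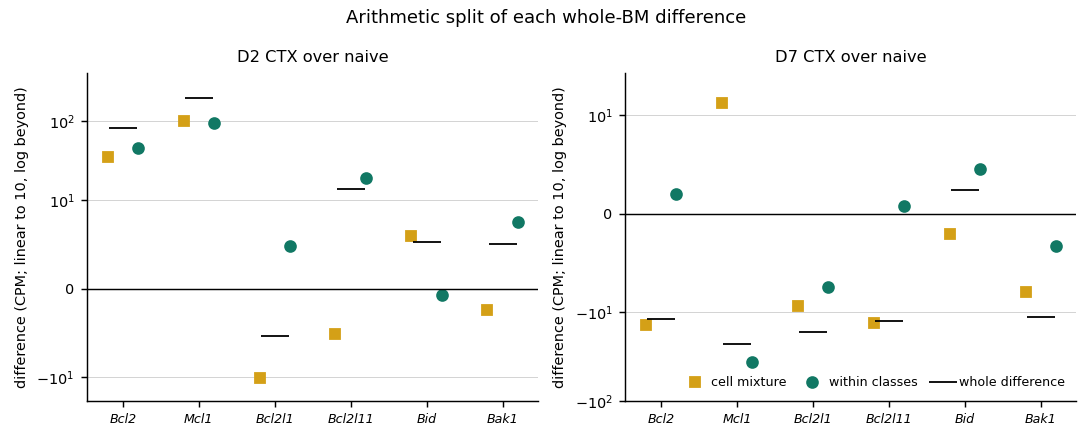
Difference in CPM of 6 members between whole BM libraries (dashes), on an axis linear to 10 and logarithmic beyond. Its 2 parts are cell mixture, by share of UMIs (squares), and within classes (circles). For Bcl2l11 the squares lie below 0 at both times, with 19.1 CPM within classes at D2 and 0.8 CPM at D7.

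At D7 the 4 neutrophil-like classes held 8.84% to 26.8% of cells each, and the median gene was lower by 0.60 on the log2(CPM + 1) scale. Against this, 2 of 8 members were called lower than in naive BM, Bcl2l1 (log2 ratio -1.42, -1.56 to -1.29) and Bcl2l11 (-1.11, -1.25 to -0.98), and 0 higher, where 23.8% of genes were called lower and 1.02% higher. The member median was -0.47. Scaled by the median of gene ratios none of the 8 was called, the values were -0.74 for Bcl2l1 and -0.45 for Bcl2l11, and Mcl1 (-0.12 by total UMIs and 0.48 by that scaling), Bak1 (-0.47 and 0.13) and the 3 Bcl2a1 copies changed sign. With the mean of the cells' CPM and with cells thinned to 1 depth the called members were Bcl2l1 and Bcl2 (-1.34 and -1.71, against -0.88 in the main values), and Bcl2l11 was short of the call (-0.77 and -0.88). The Bcl2l11 difference of -12.6 CPM held a mixture term of -13.4 CPM, while that of Bcl2l1 was -9.39 CPM from the mixture and -7.40 CPM within classes.

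Of 65 pairs of a member and a class at D7 against naive, 2 were called higher, both in pre-B-like cells (Bcl2l11, 31.4 and 69.2 CPM; Bcl2, 6.43 and 18.2 CPM on 17 and 5 UMIs), and 1 lower (Bcl2a1a in mature neutrophil-like cells, 8.65 and 3.05 CPM), against 1.62% and 3.69% of all pairs and 6.59% of genes called higher in pre-B-like cells. The Bcl2a1 sum was also past the threshold in immature (11.3 and 4.89 CPM) and mature neutrophil-like cells (27.0 and 11.8 CPM). Bcl2l1 was below naive in all 9 classes with enough UMIs, with an interval below 0 in 4, among them pre-B-like (130.5 and 72.8 CPM) and cycling B lineage-like cells (62.0 and 40.0 CPM). Mcl1 was lower in immature (518 and 383 CPM) and mature neutrophil-like cells (1126 and 858 CPM) and higher in GMP-like cells (96.4 and 124 CPM). Bak1 was below naive in 9 of 10 classes, with an interval below 0 in 3. The median of all genes in these 10 classes ran from -0.27 to 0.01 on the log2(CPM + 1) scale.

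Bcl2l11 was back near its naive level at D7 in most classes, for example 5.72, 15.7 and 5.98 CPM in GMP-like, 19.0, 62.3 and 21.8 CPM in plasmacytoid-like and 19.5, 39.2 and 17.2 CPM in mature neutrophil-like cells in the naive, D2 and D7 libraries. It was below naive in cycling neutrophil precursor-like cells (10.8 and 6.56 CPM; -0.71, -1.18 to -0.23). In pre-B-like cells D7 was near D2, at 31.4, 67.0 and 69.2 CPM, the last on 19 UMIs of 88 cells.

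Between D7 and D2, 6 of 9 members were called lower in the whole libraries, Bcl2, Bcl2l1, Bcl2l11 and the 3 Bcl2a1 copies, and 0 higher, against 37.2% of genes lower and 1.11% higher. The member median was -1.37 against -0.77 over all genes. Under scaling by the median of gene ratios 2 were called lower, Bcl2 and Bcl2a1d, and Bid (-0.12 by total UMIs and 0.65 by that scaling) and Bak1 (-0.64 and 0.13) changed sign. Of 61 pairs within classes, 19 were lower and 2 higher (Bcl2a1b in GMP-like and Bid in pre-B-like cells, on 6 to 32 UMIs each), against 15.3% and 3.79% of all pairs. Bcl2l11 was called lower in 7 of 9 classes. Mcl1 was lower in all 9, with intervals below 0 in each and a call in none, and its median was -0.55 on the log2(CPM + 1) scale. The median of all genes was also below 0 in each of these 9 classes, from -0.57 to -0.05 on that scale. Bid ran the other way, higher in 7 of 9 with an interval above 0 in 5, as in mature neutrophil-like cells, with 55.6 CPM at D2 and 89.6 CPM at D7. This comparison shares its D2 library with the first one, and the naive library is shared by the first and second.

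In the sorted monocytes 0 of 7 members were called, with 0.243% of 9876 genes called higher and 0.861% lower. The largest differences were Bcl2l11, at 34.7 CPM in sorted naive and 18.2 CPM in sorted CTX cells (-0.93, -1.09 to -0.77), and Mcl1 (-0.52, -0.55 to -0.48). The median over members was -0.10. By class, Mcl1 was lower in CTX in all 3, with 322 and 243 CPM in GMP-like, 545 and 428 CPM in cycling monocyte-like and 959 and 692 CPM in monocyte-like cells. The GMP-like cells here passed the CD11b+Ly6Chi sort. The paper names sorted monocytes high in Mpo, Elane, Prtn3 and Ctsg neutrophil-like monocytes. Bcl2l11 was 48.6 and 26.3 CPM in monocyte-like cells (-0.88, -1.08 to -0.69) and 19.2 and 12.1 CPM in cycling monocyte-like cells. None of the 23 pairs was called, where 0.777% of all pairs were higher and 0.824% lower.

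The 4 mature neutrophil-like markers were Il1b, Cxcr2, Clec4d and Cxcl2. The sorted naive monocyte-like cells also held more of them, 1438 CPM in sum against 97.1 CPM in sorted CTX cells. The source of this marker signal was not tested, and the sorted naive library held only 10 cells of the mature neutrophil-like class. Without the cells that held a UMI of these markers, 249 of 1300 naive and 1132 of 1519 CTX cells remained. The restriction thus removed a larger part of the naive than of the CTX cells, and it cannot be read as a removal of neutrophils. Bcl2l11 was then 23.1 and 23.6 CPM (0.03, -0.40 to 0.49), and Mcl1 809.5 and 672 CPM (-0.27, -0.34 to -0.19). The Bcl2l11 difference in monocyte-like cells was thus not seen among the cells left and that of Mcl1 was narrower. The part of this unequal selection in those values was not tested. In cycling monocyte-like cells Bcl2l11 remained lower in CTX under the same restriction, at 18.5 and 12.1 CPM (-0.62, -1.11 to -0.10).

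Other genes of the pathway were read from a list of 30, of which 26 had at least 100 UMIs. At D2, 4 of 26 were called higher and 0 lower in the whole library, against 6.5% and 3.19% of all genes, with a list median of 0.04 against 0.20 over all genes. The effector Bax went from 82.5 to 225 CPM, and the BH3-only genes Bbc3 (PUMA) from 6.10 to 30.02 CPM and Pmaip1 (NOXA) from 4.19 to 17.9 CPM. These 3 are textbook targets of p53, the factor that responds to DNA damage. Birc3, an inhibitor of apoptosis induced by NF-κB, went from 28.5 to 67.4 CPM. By class, Bbc3 was called higher in 12 of 14, Bax in 8 and Pmaip1 in 7, and Apaf1, the scaffold of the apoptosome, in 6, where 4.18% to 16.2% of genes were called higher by class. Casp9, the caspase that the apoptosome activates, was 12.2 and 12.4 CPM.

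At D7 against naive, 2 of the 26 were called lower, the BH3-only gene Bmf (8.79 and 1.63 CPM) and Bcl2l13 (22.5 and 9.67 CPM), and 0 higher, where 23.8% of all genes were lower and 1.02% higher, with a median of -0.46 against -0.60. Neither was called lower within any class, and Bmf is among the 10 leading genes of pre-B-like cells, which were 13.6% of naive and 1.06% of D7 cells. The part of the cell mixture in these 2 values was not tested. Under scaling by the median of gene ratios 3 were called, 2 of them higher. Within classes Pmaip1 was called higher at D7 in 6 of 10, not all of them called at D2 and with an interval that spans 0 in plasmacytoid-like cells. These calls rest on only 1 to 9 naive UMIs each, where 0.363% to 6.59% of genes were called higher by class. Levels of Pmaip1 were for example 1.63 and 8.80 CPM in GMP-like and 5.59 and 26.5 CPM in cycling monocyte-like cells. From D2 to D7, 8 of 26 were called lower and 0 higher, where 37.2% of all genes were lower and 1.11% higher, and under scaling by the median of gene ratios 3 were lower and 2 higher. The 8 were Bcl2l2, Bax (225 and 51.6 CPM), Bbc3, Pmaip1, Bmf, Apaf1, Xiap and Birc3. In the sorted libraries 0 of 26 were called.

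Over the 48 pairs of a library and a class, which share libraries and depth, the genes whose log2(CPM + 1) was most like that of a member by Pearson's r were Bcl9l (0.87), Macf1 (0.86) and Kbtbd11 (0.85) for Bcl2, Stat6 (0.89), Samhd1 (0.89) and Zfp36 (0.88) for Mcl1, and Socs2 (0.85), Alpl (0.81) and Gfra2 (0.80) for Bcl2l1. For Bcl2l11 they were Herc6 (0.81), Mkln1 (0.80) and Nup98 (0.80), for Bid H2afj (0.82), Acot9 (0.78) and Ifnar2 (0.75), and for Bak1 Plpp2 (0.89), Hsd17b4 (0.89) and Akr1a1 (0.88). Those for the Bcl2a1 copies included Cxcl16 for Bcl2a1a (0.81) and for Bcl2a1d (0.85), after Clec4n (0.87) and Pdlim4 (0.86), with Rab20 (0.75) for Bcl2a1b. Among the members themselves the copies were most alike, Bcl2a1a and Bcl2a1d at 0.77 and Bcl2a1a and Bcl2a1b at 0.67, followed by Bcl2 and Bcl2l11 at 0.54. These are descriptions over 10257 genes and carry no test.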

How the data were processed

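BM cells were profiled with 10x Genomics 3′ single-cell reagents. The authors deposited filtered matrices of raw UMI counts per gene and cell, 1 per library. The submitters' processing notes name Cell Ranger 3.1, Seurat 5.0 and the mm10 build. Of 31053 feature IDs, 30934 were found in GENCODE vM21 (GRCm38).

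The members, marker lists, pathway list and comparisons were chosen with earlier results of these data known, and the score limits of the class gate after the cells had been seen. Cells with at least 200 genes and under 20% mitochondrial UMIs were kept. A cell's score for a class was the mean over its markers of log(1 + UMIs per 10000), each divided by its mean in the 50 highest cells. The best class was assigned at a score of at least 0.25 and a margin of 0.05 over other lineages, and neutrophil, B lineage and monocyte cells at 0.15 or more for Mki67, Top2a, Cenpf, Nusap1 and Ube2c were called cycling. Doublets were not removed in the main values. As an alternative, scanpy 1.11.5 (Scrublet) scores marked 1.53% to 6.63% of cells.

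UMI counts were summed per library or class and divided by total UMIs. Levels have exact Poisson intervals, ratios exact conditional intervals for 2 Poisson counts and shares Clopper-Pearson intervals, at 95%, computed with scipy 1.17.1. Calls used log2(CPM + 1), a threshold of 1 and at least 100 UMIs per pair of libraries or 20 per pair of classes. Conditions were not tested against each other, since none has a replicate library. Named genes were the 9 members, pathway genes past the threshold, and for each member the 3 genes with the highest Pearson's r over pairs of library and class among genes with at least 20 CPM somewhere. Pathway genes quoted within classes, Casp9, the marker genes and the restricted cell sets were added after values were seen. The ratio and interval code was checked on simulated counts. Sequences were read with Biopython 1.88 from RefSeq promoter windows of GRCm38.p6 (250 bases before to 50 after each start).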

Additional observations from a re-analysis of the deposited data

Results flagged for a closer look

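The results here were picked out because the same comparison gave log2 ratios of opposite sign in different cell classes, each with a counting interval that excludes 0. With 1 library per condition the differences between classes were not tested.

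At D2 against naive, Bid was 0.84 in GMP-like and -0.98 in cycling neutrophil precursor-like cells. At D7 against naive, Mcl1 was 0.36 in GMP-like and -0.44 in immature neutrophil-like cells. In the same comparison Bcl2l11 was 1.14 in pre-B-like and -0.71 in cycling neutrophil precursor-like cells. At D7 against D2, Bcl2a1b was 1.40 in GMP-like cells, on 32 and 6 UMIs, and -2.90 in neutrophil precursor-like cells. In that comparison Bid was 0.95 in plasmacytoid-like and -0.82 in GMP-like cells. Mcl1 in GMP-like cells was 0.36 between D7 and naive whole BM and -0.41 between the sorted CTX and sorted naive libraries. These differ in preparation and in the cells they hold, since the sorted GMP-like cells passed a CD11b+Ly6Chi sort. Their Ly6c2 level was 716 CPM in sorted naive and 727 CPM in sorted CTX cells. In whole BM GMP-like cells it was 275 CPM in naive and 320 CPM at D7. The 2 Mcl1 values are thus not for like cells.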

How the results depend on the processing

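No value counted here changed sign from one call to the opposite call under the alternatives run. Of the counts that answer a comparison, 79 alternatives were within 1.5 times the main count and 15 were not. Of the other values 501 were the same and 105 moved. Pairs of a member and a class left with under 20 UMIs by an alternative were not counted here. Among them was Bcl2l11 in neutrophil precursor-like cells at D2, 1.87 on the log2(CPM + 1) scale in the main values. Without cells holding a B-like or T-like marker UMI it was -0.08, on 1 D2 and 9 naive UMIs. At D2 the number of called members was 3, against 1 with a pseudocount of 10 CPM and 6 with a threshold of 0.5 log2 units. At D7 against naive it was 2, against 0 with scaling by the median of gene ratios, 0 with the 20 most abundant genes left out of the totals and 0 with a pseudocount of 10 CPM. At D7 against D2 it was 6, against 2 with the median of gene ratios and 2 with a pseudocount of 10 CPM, and the pathway list gave 5 (2 higher and 3 lower) in place of 8 with the median of gene ratios. In the sorted cells 2 members passed a threshold of 0.5 and 0 passed 1. Among pairs within classes at D7 against naive, the 3 calls became 6 with doublets removed, 6 with a pseudocount of 0.1 CPM, 5 with the mean of the cells' CPM and 7 with no minimum of UMIs, and the sorted cells gave 2 with no minimum in place of 0. At D2 the 28 pairs ranged from 19 to 36 and the 12 classes with Bcl2l11 called from 9 to 13. Over the whole library Bcl2l11 at D2 moved from 0.66 to 1.16 with the mean of the cells' CPM and to 1.03 in thinned cells, past the threshold. Pairs of a member and a class whose shares of cells had intervals that do not overlap numbered 8 at D7 against D2 after thinning to 1000 UMIs and 2 after thinning to 500. The same count was not made over all genes, so these numbers have no background and show only a dependence on depth. The causes were not tested. No paired analysis was possible because each condition has 1 library. Depth limits the Bcl2a1 copies and the D7 lymphoid classes, where 3 UMIs in pre-B-like cells are worth 10.9 CPM.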
